A study of Rattus norvegicus with 4 samples.

Results

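The genes described here handle arginine in macrophages: its uptake, its conversion to nitric oxide or to ornithine, its resynthesis from citrulline, and the polyamines made from ornithine. The 10 genes were named by their roles: Slc7a1 and Slc7a2 for uptake, Nos2 for nitric oxide, Arg1 and Arg2 for arginase, Ass1 and Asl for resynthesis, and Odc1, Amd1 and Sat1 for polyamines. Probes were assigned to them by the accession printed in the array files. Of the 10 genes, 9 had a matched probe, among 16581 genes with a matched probe in all. They had 12 matched probes, each printed as 1 spot per array. No probe matched Slc7a1, so no value is given for it.

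All samples were cultures of NR8383, an established line of rat alveolar macrophages started from lung lavage. Each of the 4 cultures was exposed to NM403, a carbon nanotube material, at 0.8 cm² of material per cm² for 4 h. The study calls them biological replicates, and the cells had gone through 20 passages. Cells had been seeded for 48 h in 25 cm² flasks. They were a line, without the other cells of the lung. RNA was measured on 1-colour (Cy3) Agilent arrays. Unexposed cultures are named in the study's design and were not analysed here, so whether any of these genes responded to NM403 could not be tested. The values describe which of these transcripts were present after exposure and how much they varied from culture to culture.

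Arginine is the shared substrate of competing enzymes in macrophages. Inducible nitric oxide synthase, encoded by Nos2, turns it into nitric oxide and citrulline, needs tetrahydrobiopterin as a cofactor, and is made mainly after microbial or interferon signals. Arginase turns it into urea and ornithine, and ornithine decarboxylase then opens the route to putrescine, spermidine and spermine. Rat and mouse macrophages are often described by the balance between these routes.

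A level below is the log2 processed signal of a probe minus, for its array, the 75th percentile over the consistently detected probes. It describes 1 probe over the cultures and does not rank genes against each other. A probe was called detected on an array where the scanner software found it well above background, and below detection where it was not. The share of non-control spots well above background ran from 45.9% on replicate 4 to 50.8% on replicate 1, and 7 to 11 of 308 negative control spots per array were called so too. The lowest level of a detected probe lay between -6.23 and -5.63, depending on the array. The software marked replicate 4 for evaluation, with 2 quality measures out of range. The arrays fell into pairs: across 7935 genes whose brightest probe was detected on all 4 arrays, the Pearson correlation was 0.996 between replicates 1 and 3, 0.992 between replicates 2 and 4, and 0.967 to 0.970 otherwise. The labels give no reason for the pairs, so the SDs below describe paired arrays and not an even scatter, and the part of the pairing in any result was not tested. Of 12 macrophage markers 10 were detected on all 4 arrays, among them Cd68, Csf1r and Lyz2, while Marco and Adgre1 were below detection on each. Markers of other cells were detected on all 4 arrays for 0 of 5 hepatocyte, 1 of 6 epithelial, 3 of 5 endothelial (Pecam1, Cdh5 and Vwf), 1 of 5 fibroblast and 2 of 5 measured neutrophil genes, and their part in the levels below was not tested. Precision is limited by there being 4 arrays. In RNA from whole cultures, fewer cells with a transcript and less of it per cell cannot be told apart.

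Of the 9 measured genes, 6 were detected on all 4 arrays: Arg1, Asl, Slc7a2, Odc1, Sat1 and Amd1. Over all measured genes the share detected on all 4 arrays was 47.9%. Nos2 was detected on 3 arrays and Arg2 on 2. Ass1 was not well above background on any of the 4. Without replicate 1 the count detected on all remaining arrays was 7, with Nos2 added, against 48.0% of all genes.

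**Figure D1:**
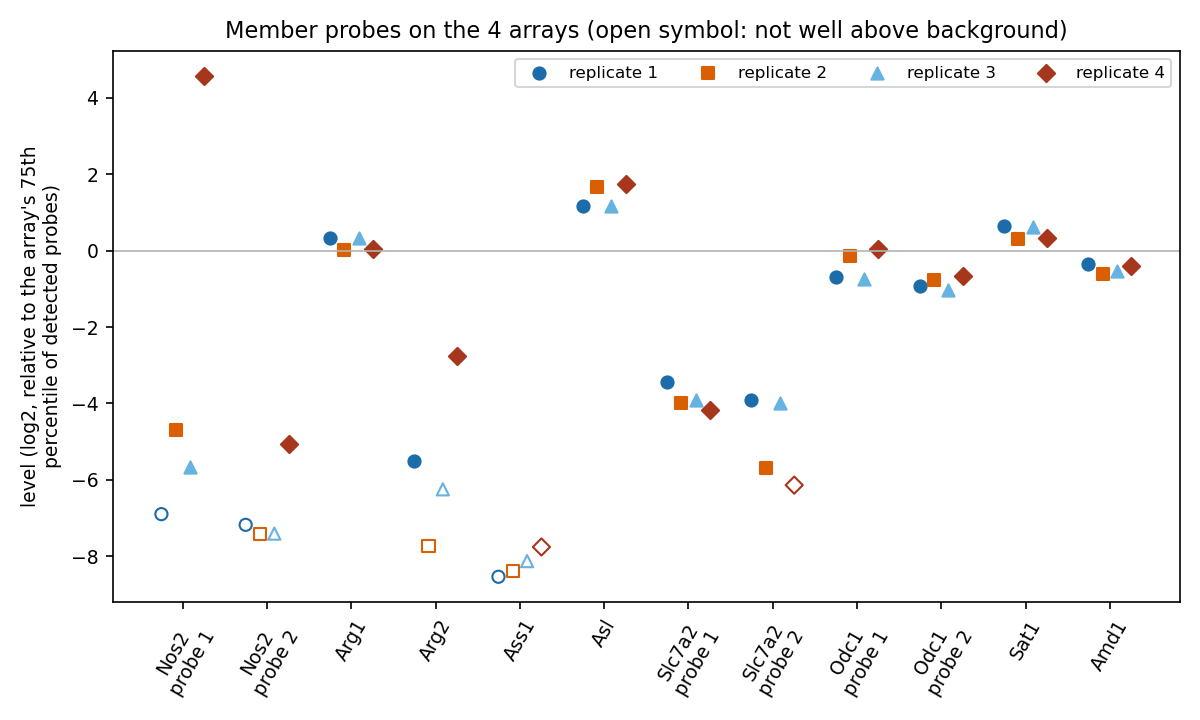
Level of each of the 12 member probes (log2, relative to the array's 75th percentile of detected probes) on the 4 arrays, with filled symbols where the probe was well above background and open symbols where it was not; where a gene has several probes, they are numbered from the brighter one. The probes of Arg1, Asl, Odc1, Sat1 and Amd1 lie close together on all arrays, whereas Nos2 probe 1 reads 4.58 on replicate 4 and -4.70 or less on the others.

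Cationic amino acid transport was represented by Slc7a2, the inducible arginine carrier CAT2, which was detected on all 4 arrays by its brighter probe. That probe read -3.44, -3.98, -3.91 and -4.18 on replicates 1 to 4, a level of -3.88 ± 0.31 (SD, n = 4). Replicate 1 was the highest, and without it the SD was 0.142. The other Slc7a2 probe read -3.91, -5.69, -3.98 and -6.14 and was not well above background on replicate 4. The probes thus disagreed on the spread, which was 1.67-fold between the highest and lowest array for the brighter probe and 4.72-fold for the other. On the brighter probe replicate 3 and replicate 2 were nearly level, whereas on the other probe replicates 1 and 3 stood apart from replicates 2 and 4.

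Of the other 5 transporter genes on the list for transport, 4 were detected on all 4 arrays. Slc7a3, the carrier CAT3, was not well above background on any. Slc7a6 and Slc7a7, which exchange arginine for neutral amino acids, had levels of -1.62 ± 0.25 and -2.60 ± 0.11 (SD, n = 4). Slc3a2, the heavy chain that both of them need, read 1.67, 2.18, 1.64 and 2.11. Slc7a5, the large neutral amino acid carrier that pairs with the same heavy chain, read -4.26, -3.15, -4.17 and -2.66, a 3.03-fold range. For Slc7a5 and Slc3a2, replicates 2 and 4 were above replicates 1 and 3 under each of the 5 scaling and background settings tried, with a range of 2.71-fold to 3.87-fold for Slc7a5.

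The reading of Nos2 depended on the probe and the array. The brighter probe read -6.90, -4.70, -5.66 and 4.58 on replicates 1 to 4, and was well above background on all but replicate 1. On replicate 4 its processed signal was 66283, against 22.8, 96.8 and 44.7 on replicates 1, 2 and 3. The other Nos2 probe, which carries the same accession, read -7.18, -7.41, -7.41 and -5.05, with processed signals of 18.7, 14.8, 13.2 and 83.7, and was well above background on replicate 4 alone. Both probes were highest on replicate 4, by very different amounts.

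The bright spot on replicate 4 lay among other bright spots. Signals under 50 were set to 50, and a spot was counted as raised if it reached 4-fold or more relative to the median spot of the other 3 arrays. On replicate 4, 7 of the 24 spots within 2 rows and 2 columns of the brighter Nos2 probe were raised, and the brightest of these neighbours stood 10.52 above the other arrays on the log2 scale, against 10.37 for the Nos2 spot itself. Over all 62976 spots of replicate 4, 0.487% were raised, which is 0.117 per 24 spots. The same neighbourhood held 1 raised spot on replicate 1, 0 on replicate 2 and 1 on replicate 3. Neither Nos2 spot carried an outlier flag. The value of 4.58 is therefore shown and not read as a level of the Nos2 transcript. It still entered the counts of wide ranges made with looser detection or without replicate 1.

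Around the other Nos2 probe, 0 of 24 spots were raised on replicate 4, and the highest of them stood 0.62 over the other arrays on the log2 scale. Within 3 rows and 3 columns, 2 of 48 spots were raised there, where 0.487% of all spots of replicate 4 were. A spot 4 rows and 4 columns away stood 3.53 over the other arrays on the log2 scale. That probe's own spot, with the floor, was 1.67-fold over the other arrays. A Nos2 signal above background on replicate 4 was thus present on a probe with 0 of 24 neighbours counted as raised. It lay close to the lowest levels that were detected at all. The spot itself did not reach 4-fold, so a local rise of that size would not have been counted and was not tested.

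**Figure D2:**
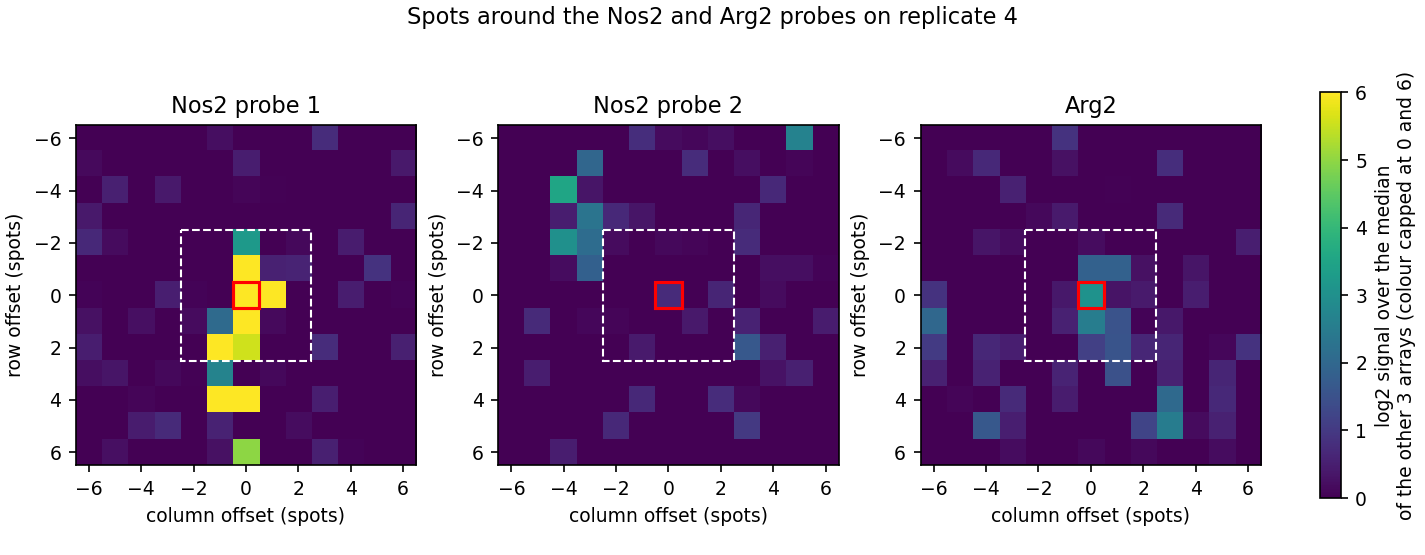
Signal of the spots around the brighter Nos2 probe, the other Nos2 probe and the Arg2 probe on replicate 4, as log2 relative to the other 3 arrays (median, signals under 50 set to 50), by row and column offset in spots; the red square is the probe and the dashed square the 24 neighbours counted. A run of bright spots passes through Nos2 probe 1, dimmer raised spots adjoin Arg2, and the raised spots near Nos2 probe 2 lie outside the dashed square.

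Genes that serve nitric oxide synthesis were detected in part. Of 9 genes on the list for synthases and their control, 3 were detected on all 4 arrays. The neuronal and endothelial synthases Nos1 and Nos3 stayed below detection on each array, and so did Nos1ap, Ddah1 and the nitric oxide receptor subunits Gucy1a1 and Gucy1b1. Nosip and Nostrin, which encode proteins that bind nitric oxide synthases, had levels of -0.23 ± 0.10 and -3.33 ± 0.22 (SD, n = 4). Ddah2, of the family that breaks down methylarginine inhibitors of the synthases, read -0.67, -2.58, -0.71 and -2.48. Its 3.76-fold range exceeded that of the brightest probe of every member detected on all arrays. Replicates 1 and 3 stayed above replicates 2 and 4 for Ddah2 under the 5 settings, with a range of 2.93-fold to 3.83-fold.

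The genes that make and recycle the tetrahydrobiopterin cofactor were mostly present. Of 7 on the list, 6 were detected on all 4 arrays, and Pcbd1, a recycling enzyme, on 2. Gch1, the first and rate-limiting enzyme, read 0.51, 1.15, 0.40 and 1.17 on replicates 1 to 4, a level of 0.81 ± 0.41 (SD, n = 4). Its feedback regulator Gchfr had a level of -2.66 ± 0.26, the later synthesis enzymes Pts and Spr of -3.81 ± 0.23 and -2.21 ± 0.31, and the recycling enzyme Qdpr of 1.76 ± 0.51. Gch1, Gchfr, Spr and Qdpr were higher on replicates 2 and 4 than on replicates 1 and 3 under each of the 5 settings. Pts ran the other way in 4 of the settings and overlapped with quantile normalization.

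Among the arginases, Arg1, the cytosolic enzyme, was detected on all 4 arrays. It read 0.32, 0.03, 0.32 and 0.04 on replicates 1 to 4, with processed signals of 3393, 2574, 2813 and 2863. The level was 0.18 ± 0.16 (SD, n = 4), a 1.22-fold range. Repeated probes of a like level, within 0.5 on the log2 scale, had a median SD of 0.0556 between spots of 1 array (88 probes), so the SD between cultures was 2.92 times the spot noise in this scaling. The SD was 0.0525 with the 75th percentile of all non-control probes and 0.0413 with the array median, both under the spot noise. With quantile normalization it was 0.183 and with normexp 0.205, both above that noise. The order of the arrays depended on the scaling. Replicates 1 and 3 were the higher ones here and with the array median, quantile normalization and normexp. They were the lower ones when arrays were scaled on the 75th percentile of all non-control probes, where Arg1 read 0.15, 0.22, 0.12 and 0.22.

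Arg2, the mitochondrial arginase, read -5.51, -7.74, -6.25 and -2.75, with processed signals of 59.4, 11.8, 29.6 and 413.3. It was well above background on replicates 1 and 4, and replicate 4 was the highest by far. Its spot on replicate 4 was 8.27-fold over the other arrays with the floor at 50. Of the 24 spots around it on that array, 1 was raised at least 4-fold and 6 at least 2-fold, where an average neighbourhood of replicate 4 held 0.117 and 0.403. On replicate 1, where Arg2 was also detected, 2 of the 24 were raised at least 4-fold and 4 at least 2-fold. An average neighbourhood of replicate 1 held 0.23 and 1.27. The part of these neighbours in the Arg2 reading was not tested, and no second Arg2 probe was matched.

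Ass1, which joins citrulline to aspartate and is the limiting step of arginine resynthesis, read -8.54, -8.39, -8.13 and -7.76, below detection on each array. Asl, which releases arginine from the product of Ass1, was by contrast detected on all. It read 1.18, 1.68, 1.17 and 1.75 on replicates 1 to 4, a level of 1.45 ± 0.31 (SD, n = 4) and a 1.5-fold range. Replicates 2 and 4 were above replicates 1 and 3 under each of the 5 settings. The difference of Asl minus Arg1 within an array, which a common scaling factor cannot change, was 0.86, 1.65, 0.85 and 1.71. Only the change of this difference over the arrays can be read, since the probes may bind unequally. The SD of Asl was 6.32 times the spot noise at its level (0.0497, 219 probes).

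Of 10 genes on the list for the urea cycle and ornithine use, 6 were detected on all 4 arrays. Cps1, Otc and Nags encode mitochondrial enzymes that serve citrulline synthesis from ammonia and ornithine. They stayed below detection throughout, as did Gatm, the first enzyme of creatine synthesis. Gamt, the enzyme that follows Gatm, was detected at 0.95 ± 0.43 (SD, n = 4). Oat, which turns ornithine toward proline and glutamate, had a level of 0.84 ± 0.12. Aldh18a1 and Pycr1, of proline synthesis, had levels of -0.29 ± 0.36 and -4.67 ± 0.42, the mitochondrial ornithine carrier Slc25a15 of -1.96 ± 0.10, and Agmat of -3.99 ± 0.15. Pycr1 and Slc25a15 had further probes that were not detected on every array: 1 of 2 and 1 of 3 probes were. The hepatocyte markers Alb, Apoa1, Ttr, Tat and Cyp2e1 were undetected throughout, although Cyp2e1 had an outlier spot left out on replicate 3.

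Polyamine synthesis starts with Odc1, ornithine decarboxylase, which makes putrescine. Both Odc1 probes were detected on all 4 arrays. The brighter one read -0.68, -0.13, -0.74 and 0.05 on replicates 1 to 4, a level of -0.37 ± 0.40 (SD, n = 4) and a 1.73-fold range. The other read -0.93, -0.76, -1.02 and -0.67, a 1.28-fold range. On both probes replicates 2 and 4 were above replicates 1 and 3, and the brighter probe kept this order under the 5 settings. Its SD was 6.52 times the spot noise of like probes, and that of the other probe 2.58 times.

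Amd1, the decarboxylase that supplies the aminopropyl groups for spermidine and spermine, read -0.35, -0.61, -0.54 and -0.41. Its level was -0.48 ± 0.12 (SD, n = 4), and its 1.19-fold range was the smallest of the 6 genes detected on all arrays. Replicates 1 and 3 did not separate from replicates 2 and 4. Its SD was 1.91 times the spot noise of like probes.

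Sat1, the acetyltransferase that starts the breakdown and export of spermidine and spermine, read 0.64, 0.31, 0.61 and 0.34. Its level was 0.48 ± 0.17 (SD, n = 4), a 1.25-fold range. Its SD was 3.4 times the spot noise of like probes (0.0504). With the 75th percentile of all non-control probes the SD was 0.0482 and with the array median 0.0505, at about that noise. With quantile normalization it was 0.222 and with normexp 0.171. Like Arg1, Sat1 was higher on replicates 1 and 3 here and with the array median, quantile normalization and normexp. Sat1 was lower on them with scaling on all non-control probes, where it read 0.47, 0.50, 0.41 and 0.52. The difference of Odc1 minus Sat1 within an array, taken with the brighter Odc1 probe, was -1.32, -0.44, -1.35 and -0.29. This difference was lower on replicates 1 and 3 than on replicates 2 and 4, and no common scaling factor changes it. The other Odc1 probe, which had a 1.28-fold range against 1.73-fold, was not used for it.

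The start-site regions of Odc1 and Sat1 are shown because the difference between these genes of opposite role changed over the pairs of arrays. Each line gives 250 bases before to 50 bases after the gene's start from RefSeq on build GRCr8, at chr6:46058415-46058714 on the plus strand for Odc1 and chrX:44007839-44008138 on the plus strand for Sat1. Capitals mark matches on either strand to TATAAA (a core promoter element), GGGCGG (the core of a GC box), CACGTG (an E-box) and TTCNNNGAA (a STAT-type palindrome).
Odc1: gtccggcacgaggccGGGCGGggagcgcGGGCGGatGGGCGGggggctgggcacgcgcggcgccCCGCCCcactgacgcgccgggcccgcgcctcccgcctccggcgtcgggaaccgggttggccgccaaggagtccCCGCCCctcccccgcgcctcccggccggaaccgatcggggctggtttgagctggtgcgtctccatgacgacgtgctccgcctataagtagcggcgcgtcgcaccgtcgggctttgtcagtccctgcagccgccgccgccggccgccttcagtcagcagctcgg
Sat1: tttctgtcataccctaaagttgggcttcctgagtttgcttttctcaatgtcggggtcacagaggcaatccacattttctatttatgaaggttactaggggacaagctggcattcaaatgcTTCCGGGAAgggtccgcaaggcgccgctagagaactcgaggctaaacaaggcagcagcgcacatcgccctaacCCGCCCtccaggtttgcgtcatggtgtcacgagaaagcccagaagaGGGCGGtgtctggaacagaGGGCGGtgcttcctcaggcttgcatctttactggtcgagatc
The Odc1 window held 5 matches to GGGCGG and a GC content of 77.3%. The Sat1 window held 3 matches to GGGCGG, 1 to TTCNNNGAA and a GC content of 53.3%, against a median of 51.7% over 33469 windows. Of all windows, 33.1% held GGGCGG, 14.2% TATAAA, 8.87% TTCNNNGAA and 6.42% CACGTG. No capitals overlap between motifs in these lines, and a match is a description of letters only.

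The rest of the polyamine list was widely detected. Of 12 measured genes, 10 were detected on all 4 arrays, and Paox and Mtap had no matched probe. Srm and Sms, the spermidine and spermine synthases, had levels of 1.22 ± 0.34 and -1.03 ± 0.12 (SD, n = 4), and all 4 probes of Srm and all 3 of Sms were detected on every array. Srm read 0.94, 1.45, 0.92 and 1.58, with replicates 2 and 4 higher under the 5 settings, in the same order as Odc1. Oaz1 and Oaz2, the antizymes that send ornithine decarboxylase to the proteasome, had levels of 4.95 ± 0.25 and 1.21 ± 0.08. Azin1, the inhibitor that protects the decarboxylase from antizyme, read -2.50, -3.84, -2.36 and -3.66, a 2.8-fold range, higher on replicates 1 and 3 under the 5 settings (2.14-fold to 2.8-fold). Azin1 and Odc1 thus ran in opposite orders over the arrays.

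Spermidine use and transport genes were also present. Dhps and Dohh, which turn spermidine into the hypusine of the translation factor encoded by Eif5a, had levels of -2.17 ± 0.50 and 3.29 ± 0.42 (SD, n = 4), and Eif5a had a level of 3.78 ± 0.34. These 3 genes were higher on replicates 2 and 4 than on replicates 1 and 3 under the 5 settings. Atp13a2, which exports polyamines from lysosomes, had a level of 0.46 ± 0.11. Smox, the spermine oxidase, read -5.42, -5.20, -5.22 and -4.82, close to where detection ends, and only 1 of its 3 probes was detected on every array. Azin2 and Satl1 were below detection on each array.

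Known regulators of Nos2 and Arg1 were detected for 11 of 12 genes on that list. Irf8, an interferon regulatory factor, was below detection on each array. Irf1, which relays interferon signals to Nos2, had a level of -0.40 ± 0.18 (SD, n = 4), and the interferon gamma receptor genes Ifngr1 and Ifngr2 of 2.15 ± 0.28 and 0.19 ± 0.19. The NF-kB genes Nfkb1 and Rela had levels of -0.75 ± 0.07 and -0.24 ± 0.14, and the endotoxin receptor Tlr4 of -2.50 ± 0.17. Of the factors known to act on Arg1, Cebpb had a level of 3.42 ± 0.27, Stat6 of -2.13 ± 0.39 and Klf4 of -2.42 ± 0.27, and the interleukin 4 receptor chain Il4r of -4.80 ± 0.27. Stat6 and Klf4 were higher on replicates 1 and 3 under the 5 settings, and Cebpb, Irf1, Nfkb1, Rela, Ifngr1 and Ifngr2 higher on replicates 2 and 4.

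Among themselves, the 6 genes detected on all arrays varied about as much as other genes. Their range between the highest and lowest array went from 1.19-fold for Amd1 to 1.73-fold for Odc1, with a median of 1.37-fold against 1.4-fold over all 7935 genes. By its brightest probe, none of the 6 exceeded 2-fold, where 13.6% of those genes did. Of the 40 other pathway genes detected on all arrays, 3 exceeded 2-fold (7.50%): Ddah2, Slc7a5 and Azin1. The dimmer Slc7a2 probe ranged 4.72-fold, and Slc7a2 exceeded 2-fold with the mean of all probes (14.6% of all genes did). With the 75th percentile of all non-control probes, Odc1 exceeded 2-fold (18.5% of all genes did). The members that passed detection on all arrays are the brighter ones, so their ranges say nothing of Nos2, Arg2 and Ass1.

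**Figure D3:**
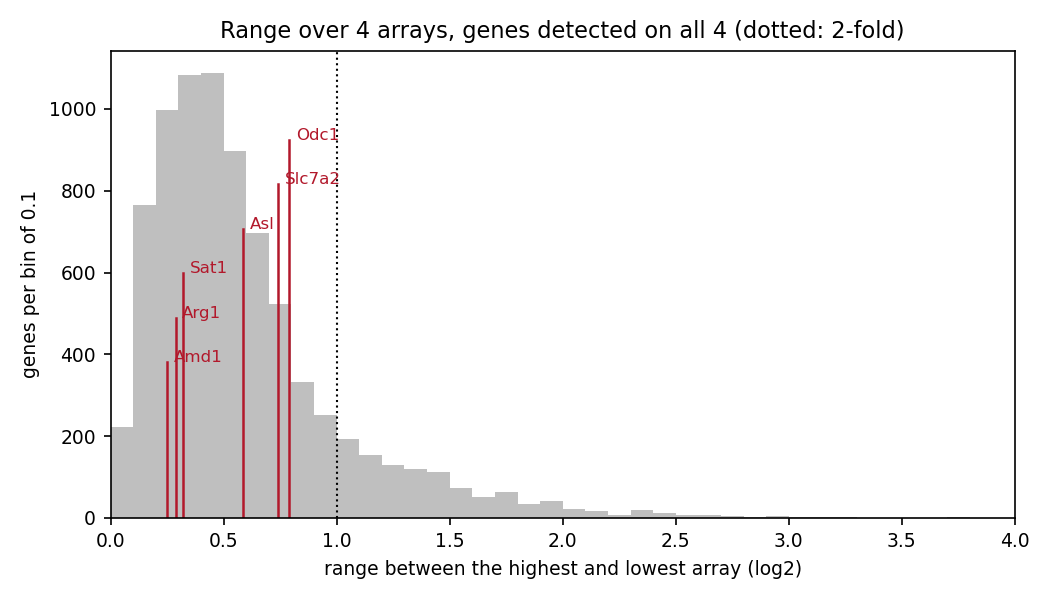
Number of genes (y axis, bins of 0.1) by the range between their highest and lowest array on the log2 scale (x axis, to 4), for the genes whose brightest probe was detected on all 4 arrays; 4 genes lie at 4 or more and are not drawn. The red lines mark Amd1, Arg1, Sat1, Asl, Slc7a2 and Odc1, all left of the dotted line at 2-fold.

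The pairs of arrays ran through these genes as through the rest. For 5 of the 6 members detected on all arrays, replicates 1 and 3 lay both above or both below replicates 2 and 4, as they did for 81.8% of all genes. Arg1, Slc7a2 and Sat1 were higher on replicates 1 and 3, and Asl and Odc1 lower. With scaling on all non-control probes, Arg1, Asl, Odc1, Sat1 and Amd1 were lower on replicates 1 and 3 and Slc7a2 overlapped. Over all genes, that scaling gave 69.9% lower and 19.0% higher on replicates 1 and 3, against 47.3% and 34.5% with the 75th percentile of detected probes. Quantile normalization gave 56.8% lower and 28.2% higher, the array median 61.4% and 24.6%, and normexp 43.4% and 33.8%. With scaling on the array median or quantile normalization, Slc7a2 overlapped too. Of these members, Asl and Odc1 kept their order under all 5 settings.

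**Figure D4:**
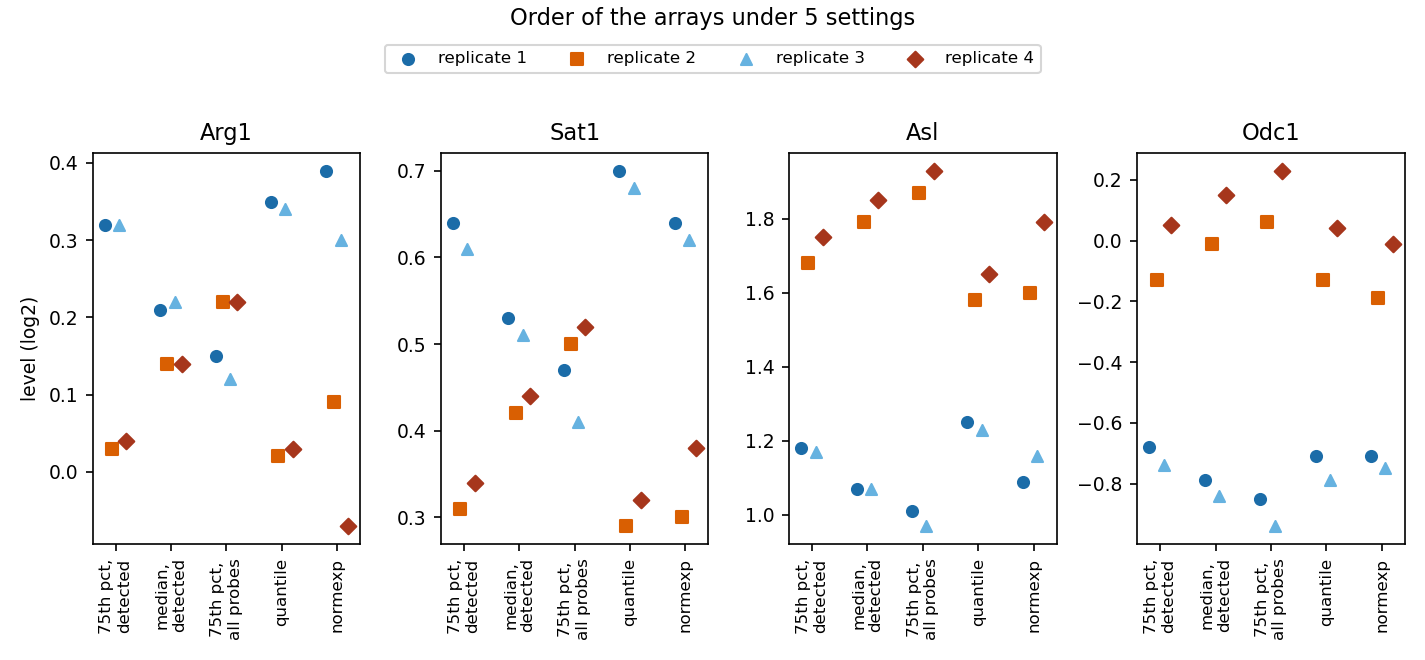
Levels of Arg1, Sat1, Asl and Odc1 (log2, each panel on its own axis) on the 4 arrays under 5 settings: the 75th percentile of detected probes, the array median of detected probes, the 75th percentile of all non-control probes, quantile normalization and normexp background correction. For Arg1 and Sat1 replicates 2 and 4 move from the low to the high side under the all-probe percentile, whereas for Asl and Odc1 they are the high ones throughout.

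Of the 40 other pathway genes, 37 showed non-overlapping pairs (92.5%), 26 with replicates 1 and 3 lower and 11 with them higher. Over all genes 47.3% were lower and 34.5% higher on replicates 1 and 3. Under all 5 settings, 22 of the 40 (55.0%) remained lower and 4 (10.0%) remained higher, where 39.0% and 18.7% of all 7935 genes did. The 4 were Ddah2, Azin1, Stat6 and Klf4. These counts describe 4 arrays of 1 group and carry no test.

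**Figure D5:**
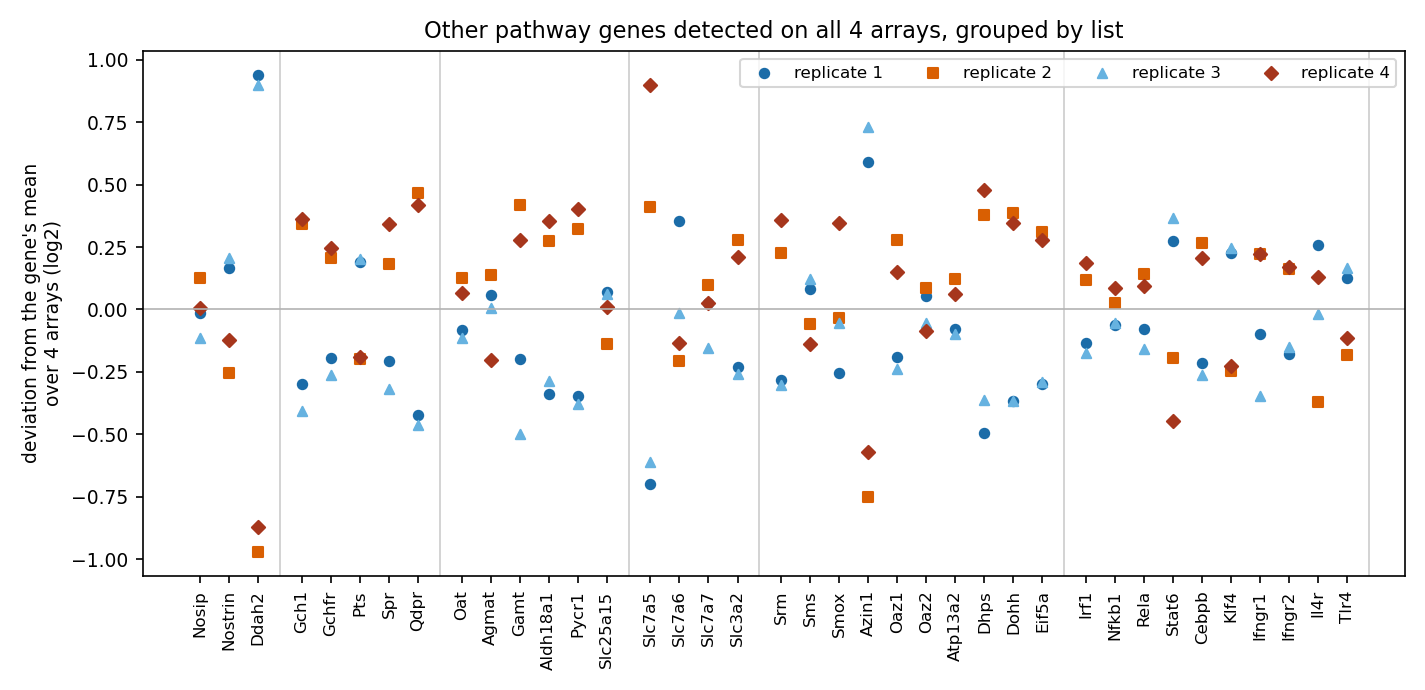
Deviation of 38 of the 40 other pathway genes, each from its own mean over the 4 arrays (log2), in the order nitric oxide control, cofactor, urea cycle and ornithine, transport, polyamines and regulators, with grey lines between the lists. Most genes have replicates 2 and 4 above replicates 1 and 3; Ddah2 and Azin1 show the widest deviations the other way and Slc7a5 the widest in the common direction.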

How the data were processed

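The deposited scanner files give an intensity for each spot of the 4 arrays; the submitters' processing notes name Agilent Feature Extraction 11.0.1.1. The authors' processed intensity had background subtracted and spatial trends removed within each array, per the file headers. The arrays were not normalized to each other, and their design names build rn4. The 4 arrays lay on 1 slide, so slide could not be a block. The deposited flags of 0 or 1 for other spot properties (well above background, outlier) were used as given. Control and outlier-flagged spots (623 to 1016 per array) were left out, no spot was saturated, and repeated spots were averaged as log2 values. Of 45598 probes, 34.2% were detected on all arrays, so each array was scaled on the 75th percentile of those. Repeated probes needed detection in over 50% of spots. A gene counted as detected through any of its probes, and took its brightest probe's level. Unversioned accessions were looked up in RefSeq genes of GRCr8: 21109 probes (46.3%) had 1 symbol, 0 several and 24489 none. Per probe, SD and range over arrays were computed with Python 3.11.15, numpy 2.4.6 and pandas 2.3.3. The settings compared were the 75th percentile or median of detected probes, the 75th percentile of all probes, quantile normalization, and normexp with offset 50 (limma 3.58.1, R 4.3.3) on median spot and background intensity, as the mean spot intensity was not used here. Also tried were the mean of all probes, outlier spots kept, a looser flag and leaving out each replicate. The code that counts wide ranges and raised spots was checked on simulated data and returned the counts put in. All members, then every gene of the role lists detected on all arrays, were named, apart from a few not reported here; members and lists were chosen with earlier results of these data known. There was 1 group, so no statistical test between groups was made.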

Additional observations from a re-analysis of the deposited data

Results flagged for a closer look

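The sets of 4 values examined were 51: member probes detected on at least 1 array and pathway genes detected on all 4. Of these, 1 had an array far from the others by Dixon's criterion. Chance alone gives about 1 in 20 for independent values, whereas these arrays fell into pairs, so that rate may not apply. The set past the criterion was the dimmer Nos2 probe, which read -5.05 on replicate 4. It read -7.18, -7.41 and -7.41 on replicates 1, 2 and 3, where it was not well above background. The brighter Nos2 probe, with 4.58 on replicate 4, did not pass the criterion.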

How the results depend on the processing

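The count of members detected on all 4 arrays was 6, and 6 to 8 under the alternatives: 8 with the looser positive-and-significant flag (58.7% of all genes, against 47.9%) and 8 when detection on at least 1 array was enough (59.6%). It was 6 to 7 without each replicate in turn, against 48.0% to 49.1% of all genes. The count with a range above 2-fold was 0, against 13.6% of all genes. It was 1 with the 75th percentile of all non-control probes (Odc1, 18.5% of all genes) and 1 with the mean of all probes (Slc7a2, 14.6%). When detection on 1 array was enough it was 2 of 8 (Nos2 and Arg2, 27.7%). Without each replicate in turn it was 0 to 1, against 11.2% to 11.9% of all genes. The 1 was Nos2 without replicate 1, where the share was 11.7%. Nos2 and Arg2 were counted only in settings that admit genes not detected on all 4 arrays. For Nos2 these counts used the brighter probe, with 4.58 on replicate 4 against -4.70 and -5.66 on replicates 2 and 3. Arg2 read -2.75 on replicate 4. Both spots had raised neighbours on that array, and the part of these neighbours in the counts was not tested. In settings added after the data were seen, 7 of 24 spots around the brighter Nos2 probe were raised at least 2-fold and 8 of 48 were raised within 3 rows and 3 columns; around the other probe these were 0 of 24 and 2 of 48. Of 60 SDs of members under alternatives, 9 moved by over 1.5 times. Of 60 levels, 2 moved by over 1 SD. The 75th percentile of all non-control probes moved the median of all genes by -0.17, 0.19, -0.20 and 0.18 on replicates 1 to 4, the array median by -0.11, 0.11, -0.10 and 0.10. Under the all-probe percentile, the SD was 0.0525 for Arg1, 0.527 for Asl, 0.606 for Odc1, 0.0482 for Sat1 and 0.21 for Amd1. Signals near background limit Nos2, Arg2, Ass1 and the dimmer Slc7a2 probe.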
